A study of Mus musculus with 220 samples.

Results

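High endothelial cells (HEC) of untreated mice were divided by whether they held transcript of P-selectin, Selp. The homeostatic HEC are 79 of the 220 sequenced cells, and a cell was called Selp-positive when its Selp level reached an FPKM of 1 (fragments scaled to transcript length and to the mapped fragments of the cell) and Selp-negative when it did not. This gave 46 Selp-positive and 33 Selp-negative cells. The sides were chosen by measured Selp levels, so these are a description, and every result concerns other genes.

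All 220 cells were sorted from lymph nodes of C57BL/6 mice, captured one by one on the Fluidigm C1 system and given a library each. The homeostatic HEC and the 32 homeostatic blood endothelial cells (BEC) came from untreated mice. Inflamed HEC (65 cells) were collected 3 days after the skin of the mice had been treated with 4% oxazolone, a contact sensitiser, and dedifferentiated HEC (44 cells) 7 days after LTBR-Ig, a fusion protein that binds lymphotoxin, had been injected 1 time into the peritoneum. No animal, chip or sort gate is named for a cell, so each side of the split counts as 1 sample: the spread given is over cells, there is no replicate check, and no p-value was computed.

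P-selectin is an adhesion receptor that endothelial cells and platelets store ready-made and move to their surface within minutes of a stimulus, where it tethers leukocytes through the sialomucin PSGL-1. In endothelium it is packed with von Willebrand factor into Weibel-Palade bodies, secretory granules that form around that protein. High endothelial cells line the venules by which lymphocytes enter lymph nodes; they display sulphated and fucosylated sialomucins to L-selectin on the lymphocyte, and the chemokine CCL21 on their luminal face.

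Selp levels ranged widely above the threshold. Among the Selp-positive cells Selp lay between 1.01 and 400.2 FPKM with a median of 54.8, and among the Selp-negative cells between 0 and 0.94 FPKM with a median of 0.17, with 13 of the 33 listed at 0. The values nearest the threshold were 1.01 and 1.1 FPKM just inside it and 0.94 and 0.83 FPKM just outside it. Of the Selp-positive cells, 14 lay from 1 to 10 FPKM and 32 at 10 or more, with no cell between 9.03 and 14.8 FPKM. In the BEC, Selp lay between 0 and 1.35 FPKM and reached 1 in 5 of 32 cells (15.6%, exact Clopper-Pearson 95% interval 5.28% to 32.8%), so the lowest Selp-positive cells are within the range of the BEC. No inflamed HEC was below 1 FPKM: the 64 inflamed cells, with 1 near-identical pair of libraries averaged (Pearson r 0.987 on log2 values, against at most 0.666 between homeostatic HEC), lay between 2.1 and 1942.5 FPKM. The dedifferentiated HEC lay between 0.09 and 412 FPKM, with 33 of 44 at 1 or more.

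**Figure D1:**
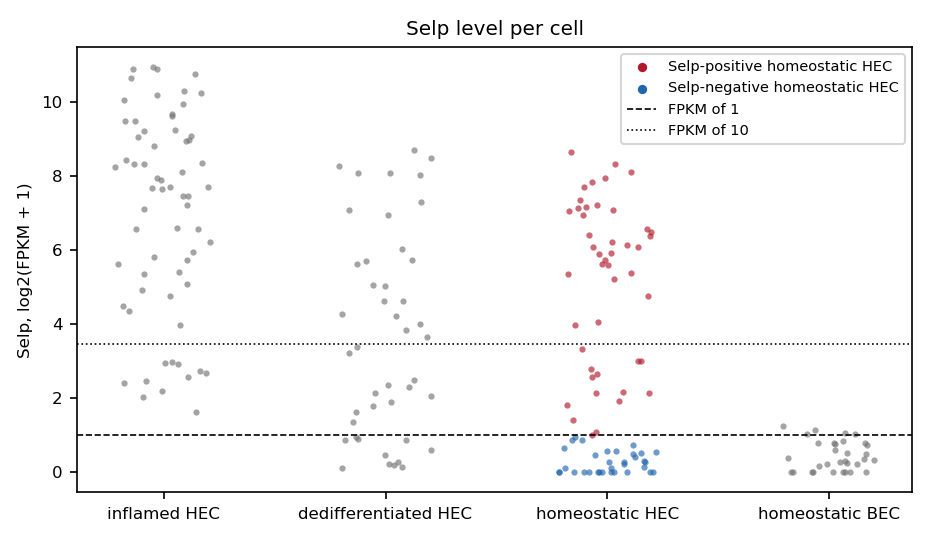
Selp level of each cell, as log2(FPKM + 1) on the vertical axis, in inflamed, dedifferentiated and homeostatic HEC and in homeostatic BEC. The 46 Selp-positive homeostatic HEC are red and the 33 Selp-negative ones blue; the dashed line marks an FPKM of 1 and the dotted line an FPKM of 10, and all inflamed HEC lie above the dashed line.

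Promoter letters are shown for Selp, which made the split, for Tek, the angiopoietin receptor and one of the endothelial genes higher on the Selp-positive side, and for Chst4, the L-selectin ligand sulphotransferase, lower on that side. Each run is the RefSeq coding-strand sequence in GRCm38.p6 from 250 bases before to 50 bases after the gene's start. They are chr1:164115014-164115313 on the plus strand, chr4:94739039-94739338 on the plus strand and chr8:110039285-110039584 on the minus strand. Capitals mark matches on either strand to 5 short motifs, none of which overlap here. The kappa B motif was taken as 3 G, any 2 bases, 3 T and 2 C, and the AP-1 motif as TGA and its reverse complement around any 1 base. Krüppel-like factors were represented by the letters GGGTG. For GATA factors the letters were AGATAA. For ETS factors, which include the endothelial factors Erg and Ets1, the letters were CAGGAA.
Selp promoter: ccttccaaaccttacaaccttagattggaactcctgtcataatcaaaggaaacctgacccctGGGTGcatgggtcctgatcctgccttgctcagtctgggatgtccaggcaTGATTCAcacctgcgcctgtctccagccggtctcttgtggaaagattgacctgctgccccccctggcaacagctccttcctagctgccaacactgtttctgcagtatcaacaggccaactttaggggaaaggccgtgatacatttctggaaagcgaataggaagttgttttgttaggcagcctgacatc
Tek promoter: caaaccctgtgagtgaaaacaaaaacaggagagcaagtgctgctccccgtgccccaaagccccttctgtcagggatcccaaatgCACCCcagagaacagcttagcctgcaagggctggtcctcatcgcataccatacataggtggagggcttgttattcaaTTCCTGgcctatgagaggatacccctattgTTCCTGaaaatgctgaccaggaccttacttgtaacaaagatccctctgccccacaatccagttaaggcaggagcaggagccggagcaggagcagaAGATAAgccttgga
Chst4 promoter: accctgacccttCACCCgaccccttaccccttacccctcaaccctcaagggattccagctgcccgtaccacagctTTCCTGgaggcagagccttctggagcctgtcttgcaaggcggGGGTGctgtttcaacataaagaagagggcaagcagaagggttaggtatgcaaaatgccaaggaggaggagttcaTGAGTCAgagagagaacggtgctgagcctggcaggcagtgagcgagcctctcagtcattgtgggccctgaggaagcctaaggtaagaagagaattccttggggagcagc
The Selp promoter held an AP-1 match at -139 and a Krüppel-like match at -188 relative to the gene's start. The Tek promoter held ETS matches at -89 and -59, a Krüppel-like match at -166 and a GATA match at 37. The Chst4 promoter held an AP-1 match at -59, Krüppel-like matches at -238 and -133 and an ETS match at -175. Of all 27025 promoters of this length, 7.93% held the AP-1 letters, 56.7% the Krüppel-like, 11.4% the GATA, 30.4% the ETS and 1.62% the kappa B letters, so most of these matches are common ones. Promoter sequences were available for 9 of the 12 genes named below as furthest higher and 7 of the 12 furthest lower. Not all of these held a motif, and Krüppel-like letters stood in 3 of the 9 and in 5 of the 7. A match is a description of the letters and not evidence of a bound factor.

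The Selp-positive cells had more genes detected. At an FPKM of 1 they held between 2204 and 5654 genes with a median of 4018, and the Selp-negative cells between 2112 and 4617 genes with a median of 3512 (Selp not counted). The means were 3979 ± 835 in Selp-positive and 3551 ± 645 in Selp-negative cells (SD over cells, n = 46 and 33). The sides overlapped widely, but 10 Selp-positive cells held more genes than any Selp-negative one. Approximate depth, from the step size of low FPKM values, had a median of 1933067 fragments in 42 Selp-positive cells and 1790513 in 32 Selp-negative cells. Its means were in the opposite order, at 2058307 ± 778809 in Selp-positive and 2079818 ± 818030 in Selp-negative cells (SD over cells). Of a cell's FPKM total, Glycam1 plus Ccl21a made up 15.2% at the median in Selp-positive cells (0.471% to 41.6%) and 24% in Selp-negative cells (1.56% to 43.2%). The FPKM total had a median of 632475.5 in Selp-positive and 687554 in Selp-negative cells. Rescaled without these 2 transcripts, 496 genes were higher and 114 lower by 1 or more, against 489 and 115 as deposited.

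**Figure D2:**
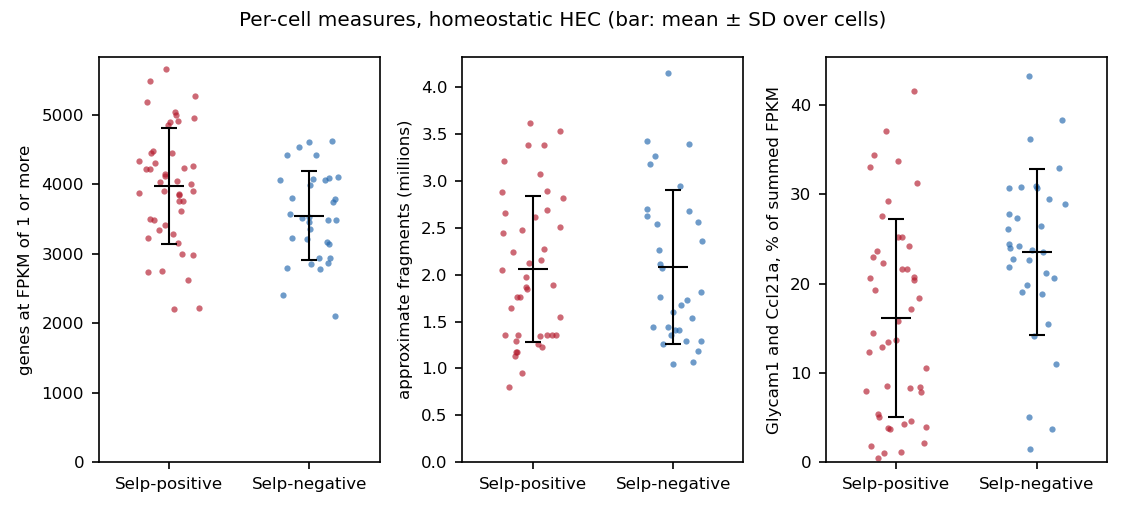
Genes at an FPKM of 1 or more, approximate fragments scaled as the axis states, and the percentage of summed FPKM taken by Glycam1 and Ccl21a, 1 point per homeostatic HEC, Selp-positive left and Selp-negative right; bars are the mean and SD over cells. Gene number has a median of 4018 in Selp-positive and 3512 in Selp-negative cells, the 2 depth ranges overlap, and the share of the 2 transcripts has a median of 15.2% in Selp-positive and 24% in Selp-negative cells.

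Markers of B lymphocytes and of leukocytes in general were found more often on the Selp-negative side. A cell was said to carry markers of another type when 3 of that type's markers reached an FPKM of 10, and this held for 1 of 46 Selp-positive cells (2.17%, interval 0.055% to 11.5%) and for 6 of 33 Selp-negative cells (18.2%, 6.98% to 35.5%), in each case by the B lymphocyte, general leukocyte or, in 1 cell, myeloid list. With only 2 markers of the B lymphocyte or general leukocyte list required, it held for 8 of 46 Selp-positive cells (17.4%, 7.82% to 31.4%) and 15 of 33 Selp-negative cells (45.5%, 28.1% to 63.7%). Summed over the 9 general leukocyte markers, levels were between 0.48 and 1051 FPKM with a median of 68.8 in Selp-positive cells, and between 0.58 and 4004 FPKM with a median of 194 in Selp-negative cells. All 7 detected members were lower in Selp-positive cells by mean, with Cd53 at -1.20 and Coro1a, an actin regulator of leukocytes, at -1.18. Platelets also carry Selp: 0 of 46 Selp-positive and 0 of 33 Selp-negative cells carried 3 platelet markers, which allows up to 6.52% and 9.09% of cells when 0 is read as at most 3 cells (upper Clopper-Pearson limits 7.71% and 10.6%). Of the 11 platelet markers 6 were listed at 0 in all 79 cells, and the chemokine gene Pf4 reached an FPKM of 1 in 28 of 46 Selp-positive and 21 of 33 Selp-negative cells with a difference of 0.01. For T lymphocyte markers the measures differed: 0 of 46 and 0 of 33 cells carried 3, and the list's median lay 0.05 from that of all genes. Summed over the 8 matched T lymphocyte markers, levels had a median of 12.3 FPKM in Selp-positive and 55.2 FPKM in Selp-negative cells. With a linear term for the number of detected genes, 1 of the 3 detected members was lower by 1 or more. The part of leukocyte RNA in the differences below was not tested. Values without the cells that have 2 B lymphocyte or general leukocyte markers are given beside many of the lists. They are called cells with lymphocyte markers for short, although the general leukocyte list is not particular to lymphocytes.

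A capillary profile appeared in 3 cells, all Selp-positive. They held at least 3 of Gpihbp1, Rgcc, Rbp7 and Cd36 at an FPKM of 10, with Selp at 1.01, 1.67 and 4.9 FPKM. Gpihbp1, which anchors lipoprotein lipase on capillaries, lay at 756, 444 and 685 FPKM in them. The high endothelial genes were present in the same cells, with Glycam1 at 3242, 8106 and 51673 FPKM and Ccl21a at 25097, 13816 and 31061 FPKM. These cells were found after the values had been seen, and values without them are given for the lists that lost calls.

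Across all other genes, differences between the sides were mostly smaller than the spread over cells, and the overlap was wide. Means of log2(FPKM + 1) were compared for 9281 genes, those at an FPKM of 1 or more in over 10% of either side. Higher by 1 or more in Selp-positive cells were 489 genes (5.27%), and lower by 1 or more were 115 (1.24%). The median difference over all 9281 genes was 0.17, and for none did the values of the sides fail to overlap. The excess of higher genes was not kept at equal gene number. With a linear term for gene number, 256 genes were higher and 319 lower with a median of 0.02. In 28 pairs of cells matched on gene number 337 were higher and 479 lower with a median of 0.0091. Gene number counts detection of the compared genes themselves, so a median near 0 is largely built into these settings. Without the 23 cells with 2 lymphocyte or leukocyte markers, leaving 38 Selp-positive and 18 Selp-negative cells, 1281 of 9613 genes were higher and 168 lower with a median of 0.31, so counts in that setting are read against this larger background. Without the 3 cells with the capillary profile, 469 were higher and 120 lower. For Selp at 10 or more against below 10, which puts the 14 cells with little Selp on the other side, 316 were higher and 184 lower with a median of 0.05. List medians are therefore given relative to the median of all genes, and again with the term for gene number. Lists share members (Tek, Kdr and Sele stand in several), so their counts are not separate.

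Named genes were the 12 furthest in each direction among the 3254 genes that at least 50% of a side held at an FPKM of 1, of which 363 (11.2%) were higher and 66 (2.03%) lower by 1 or more. The rule picks extremes, so their sizes are a description. Furthest higher was Ly6c1, which encodes a GPI-anchored surface protein of the Ly6 family abundant on capillary endothelium (chr15:75044018-75048830 in GRCm38). Ly6c1 lay between 0.36 and 5906 FPKM in the Selp-positive cells, with a median of 621, and between 0 and 2264 FPKM in the Selp-negative cells, with a median of 11.9. It averaged 7.52 ± 3.66 in Selp-positive and 4.43 ± 2.93 in Selp-negative cells on the log2 scale, a difference of 3.09. The sides overlapped over most of their range. Reads of Ly6c1 and its near-identical neighbour Ly6c2 may not be separable.

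Spry4, a feedback inhibitor of receptor tyrosine kinase signalling, was found mostly on the Selp-positive side. It reached an FPKM of 1 in 23 of 46 Selp-positive cells (50%, interval 34.9% to 65.1%) and in 1 of 33 Selp-negative cells (3.03%, interval 0.0767% to 15.8%). Its levels went up to 299 FPKM in Selp-positive cells and, in Selp-negative cells, up to 130.5 FPKM. The difference of 2.60 was 1.06 times the pooled SD over cells, the largest of the 24 named genes by that measure. With the term for gene number it was 2.61.

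Samhd1, a nucleotide triphosphohydrolase that restricts retroviruses, lay between 0 and 664 FPKM in the Selp-positive cells, with a median of 21.2, and between 0 and 145 FPKM in the Selp-negative cells, with a median of 0.62. It differed by 2.49. Sgk1, a serum- and glucocorticoid-induced kinase, lay between 0 and 1988 FPKM in the Selp-positive cells, with a median of 75.6, and between 0 and 531 FPKM in the Selp-negative cells, with a median of 2.16. It differed by 2.48, and the sides overlapped up to the highest Selp-negative value.

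The next higher genes were Gbp4, an interferon-inducible GTPase (2.22), Apold1, an early response gene of endothelium (2.16), Ccdc6 (2.16), Ppp2ca, the catalytic subunit of protein phosphatase 2A (2.13), and Rnf125, a ubiquitin ligase (2.12). They were followed by Rhog, a small GTPase gene (2.10), Fosl2, an AP-1 subunit (2.09), and Arpc1a, a subunit of the actin-nucleating Arp2/3 complex (2.08). Rhog reached an FPKM of 1 in 31 of 46 Selp-positive and 8 of 33 Selp-negative cells, Fosl2 in 38 of 46 Selp-positive and 15 of 33 Selp-negative cells and Apold1 in 33 of 46 Selp-positive and 12 of 33 Selp-negative cells. All 12 stayed above 0 under each of the 13 alternative settings that were tried. Those settings reuse the cells in which the 12 were chosen for their size, so a kept sign is no separate support.

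Among the genes furthest lower, Clu was by far the most abundant. Clu, the secreted chaperone clusterin, lay between 0.66 and 33685 FPKM in the Selp-positive cells, with a median of 3015, and between 10.2 and 44862 FPKM in the Selp-negative cells, with a median of 11104. It averaged 10.98 ± 3.27 in Selp-positive and 12.89 ± 2.53 in Selp-negative cells, a difference of -1.92. Ndufb6, a subunit of respiratory complex I, lay between 0 and 568 FPKM in the Selp-positive cells, with a median of 18.9, and between 0 and 562 FPKM in the Selp-negative cells, with a median of 133. Its difference was -2.21 and, in cells matched on gene number, -3.10. Ly6i, another member of the Ly6 family on the same chromosome as Ly6c1, went the opposite way from it, with medians of 86.7 FPKM in Selp-positive and 314 FPKM in Selp-negative cells and a difference of -2.0. Sc5d, a late enzyme of cholesterol synthesis (-1.70), Tnfaip8l1 (-1.65), Cnp (-1.64), Hbp1, a repressor of cell cycle genes (-1.63), Ndfip1, an adaptor of ubiquitin ligases (-1.61), Grina (-1.55), Psmd1, a proteasome subunit (-1.54), Chrac1 (-1.53) and Sdc4, a heparan sulphate proteoglycan (-1.51), made up the rest. Cnp, Ndfip1 and Sdc4 turned to 0.036, 0.056 and 0.061 when cells with any Selp were set against the 13 with none.

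**Figure D3:**
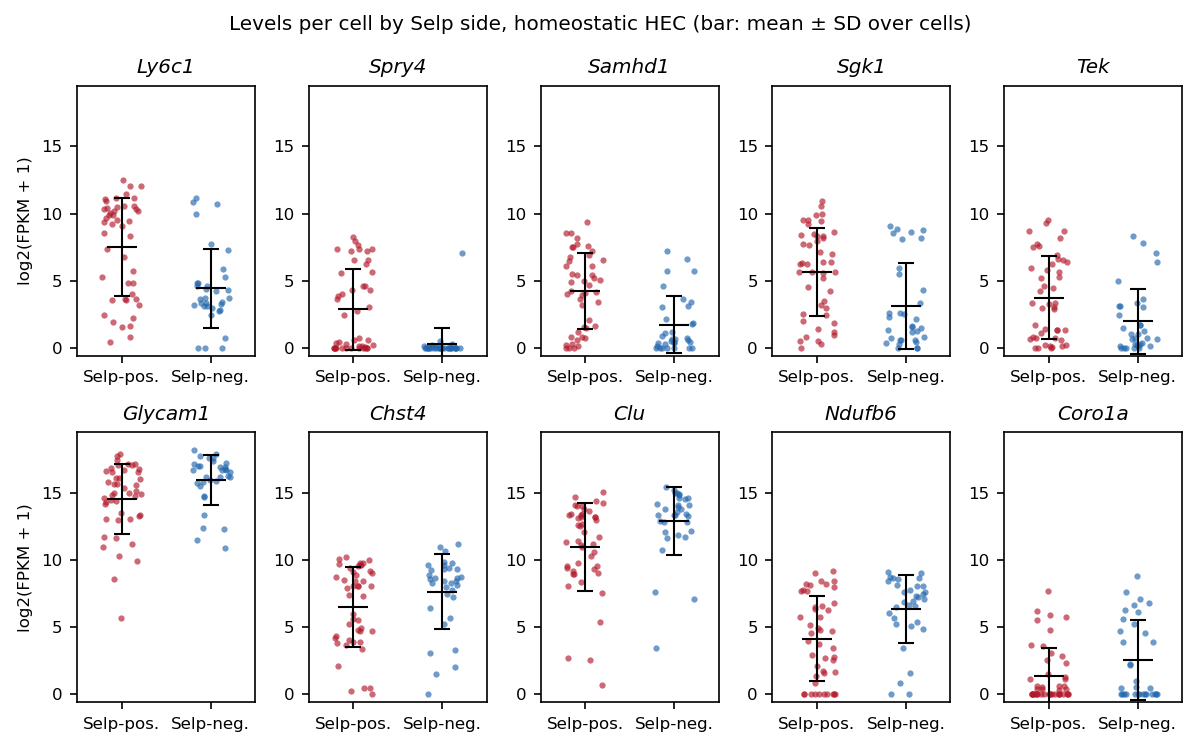
Levels of 10 genes as log2(FPKM + 1), 1 point per homeostatic HEC, Selp-positive left and Selp-negative right; bars are the mean and SD over cells. Ly6c1, Spry4, Samhd1, Sgk1 and Tek are higher on the Selp-positive side by 1.75 to 3.09, and Glycam1, Chst4, Clu, Ndufb6 and Coro1a are lower by mean, with overlap of the sides for all 10.

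Several genes typical of high endothelial cells were lower by mean where Selp was present. Glycam1, the secreted sialomucin that carries L-selectin ligands, lay between 49.6 and 240872 FPKM in the Selp-positive cells, with a median of 33103, and between 1956 and 295547 FPKM in the Selp-negative cells, with a median of 98175. It averaged 14.55 ± 2.60 in Selp-positive and 15.94 ± 1.86 in Selp-negative cells, a difference of -1.39, and 4 Selp-positive cells held less of it than any Selp-negative cell. Chst4, the sulphotransferase of the 6-sulpho sialyl Lewis x ligand, lay between 0 and 1183 FPKM in the Selp-positive cells, with a median of 205, and between 0 and 2294 FPKM in the Selp-negative cells, with a median of 354, and differed by -1.13. The chemokine gene Ccl21a had medians of 40384 FPKM in Selp-positive and 67035 FPKM in Selp-negative cells and a difference of -0.96, and the fucosyltransferase gene Fut7 medians of 306 FPKM in Selp-positive and 404 FPKM in Selp-negative cells and a difference of -0.86. The other 3 were not lower by such an amount: the autotaxin gene Enpp2 at 0.10, the branching enzyme Gcnt1 at -0.05 and the second sulphotransferase Chst2 at 0.52.

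Of the 7 detected high endothelial markers, 0 were higher and 2 lower by 1 or more, against 5.27% and 1.24% of all 9281 genes. Their median lay -1.03 from that of all genes. It was -1.14 with the term for gene number and -1.27 without the cells with lymphocyte markers, but -0.30 with 1 lower for Selp at 10 or more against below 10. The list's own median of -0.86 was -0.23 for any Selp against none and -0.19 as a ratio of arithmetic means. Both sides stood above the 32 BEC in the mean of each of the 7, with Glycam1 at 6.22 and Chst4 at 0.59 in BEC, against means of 15.94 and 7.64 in Selp-negative HEC. Over the wider list of sialomucins and glycosylation enzymes, 2 of 16 were higher and 2 lower, with a median -0.08 from that of all genes. The higher ones were Sele, E-selectin, and Emcn, endomucin (1.08), and the lower ones Glycam1 and Chst4. The sialyltransferases St3gal4 (0.20) and St3gal6 (-0.11) and the galactosyltransferase B4galt1 (0.30) were at smaller differences, and Cd34 was at 0.40.

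Genes shared with other blood vessels were on balance higher in the Selp-positive cells. Among angiogenic receptors, 5 of 12 were higher and 0 lower, against 5.27% of all 9281 genes higher. Their median lay 0.71 above that of all genes. Tek lay between 0 and 721 FPKM in the Selp-positive cells, with a median of 8.82, and between 0 and 321 FPKM in the Selp-negative cells, with a median of 1, a difference of 1.75. Kdr, the main VEGF receptor, had medians of 31.9 FPKM in Selp-positive and 4.27 FPKM in Selp-negative cells and a difference of 1.46. Mcam (1.58), Aplnr, the apelin receptor (1.23), and the co-receptor Nrp1 (1.12) were the other 3. Robo4 was at -0.59 and Angpt2 at 0.24. With the term for gene number the median stood 0.65 above that of all genes. The count was 8 of 12 without the cells with lymphocyte markers, where 1281 of 9613 genes were higher. It was 3 of 12 without the 3 cells with the capillary profile, where 469 of 9170 genes were. For Selp at 10 or more against below 10 it was 1 of 12, with a median 0.24 above that of all genes.

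Caveolar genes leaned the same way in all 10 detected members, 4 of them by 1 or more, against 5.27% of all 9281 genes. Their median lay 0.67 above that of all genes, and 0.84 above it with the term for gene number. Ehd4, an ATPase of caveolar and endosomal membranes, had medians of 66.7 FPKM in Selp-positive and 15.9 FPKM in Selp-negative cells and a difference of 1.77. The coat genes Sdpr (1.52) and Ptrf (1.42) and the caveolin gene Cav2 (1.24) followed. Cav1 fell just short of a difference of 1, with medians of 556 FPKM in Selp-positive and 389 FPKM in Selp-negative cells, and the diaphragm gene Plvap was at 0.62. Without the cells with lymphocyte markers the median was 0.74 above that of all genes. For Selp at 10 or more against below 10, 1 of the 10 was higher, with a median 0.52 above.

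Of 11 capillary genes, 4 were higher and 0 lower, against 5.27% of all 9281 genes higher. Their median lay 0.59 above that of all genes. The 4 were Ly6c1, Sgk1 and the fatty acid binding proteins Fabp5 (2.02) and Fabp4 (2.01). Fabp4 had medians of 429 FPKM in Selp-positive and 15.5 FPKM in Selp-negative cells. The genes that most mark capillary cells, Rgcc (0.76), Rbp7 (0.73), Gpihbp1 (0.54) and Cd36 (0.41), had smaller differences, and without the 3 cells with the capillary profile Gpihbp1 was at 0.01 and Rgcc at 0.20. The list then had a median 0.48 above that of all genes, with the same count of 4 higher, and Ly6c1 was at 2.78. For Selp at 10 or more against below 10 the median was 0.32 above. Cd300lg, a mucin-like receptor known from capillaries and high endothelium, went the other way at -0.68.

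All 14 detected basement membrane genes were higher by mean, 4 by 1 or more, against 5.27% of all 9281 genes. Their median lay 0.51 above that of all genes. The collagen chains Col4a1 (1.43), Col15a1 (1.27) and Col4a2 (1.06) and the laminin chain Lamb2 (1.03) led. Col15a1 reached an FPKM of 1 in 45 of 46 Selp-positive and 27 of 33 Selp-negative cells. Without the 3 cells with the capillary profile, 2 of the 14 were higher by 1 or more and the median was 0.50 above that of all genes. The count was 7 without the cells with lymphocyte markers, where 1281 of 9613 genes were higher. With the term for gene number 2 were higher, and for Selp at 10 or more against below 10 the count was 1, with a median 0.22 above that of all genes.

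Flow-responsive and anticoagulant genes had 4 of 9 members higher and 0 lower, against 5.27% of all 9281 genes higher. Their median lay 0.80 above that of all genes. The 4 were thrombomodulin, Thbd (1.36), the shear-induced factors Klf2 (1.2) and Klf4 (1.08), and Tfpi2 (1.13). Tfpi, the tissue factor pathway inhibitor, was at -0.92. With the term for gene number 1 was higher and 1 lower, with a median 0.77 above. Without the cells with lymphocyte markers 2 were higher, where 1281 of 9613 genes were, with a median 0.23 above. For Selp at 10 or more against below 10, 2 were higher, with a median 0.28 above, and the cause was not tested.

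**Figure D4:**
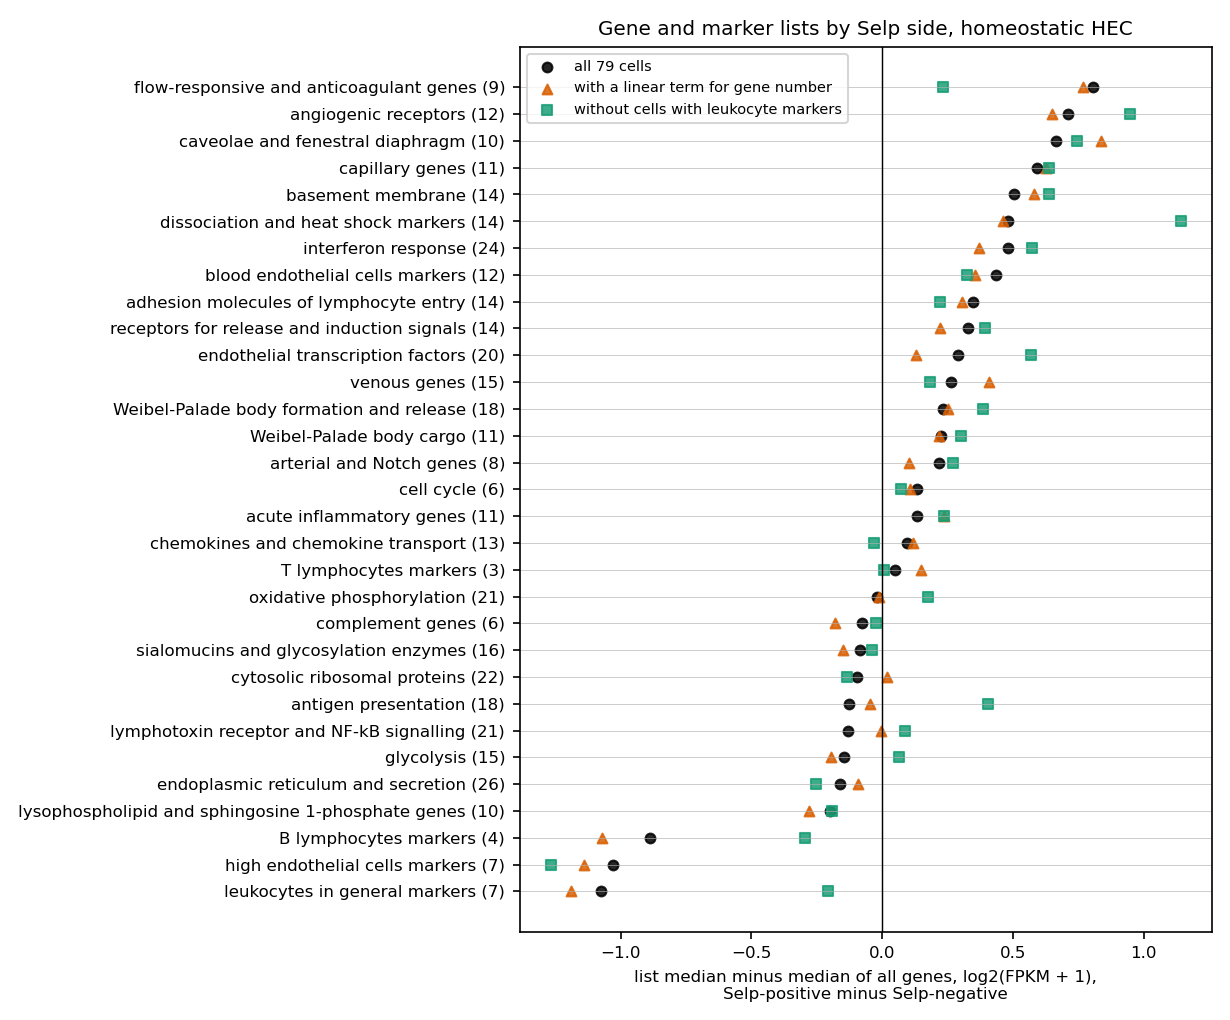
For each gene or marker list with 3 or more detected members (number in brackets), the median difference of its members minus the median of all genes, Selp-positive minus Selp-negative, on the log2(FPKM + 1) scale. Black circles are all 79 cells, orange triangles add a linear term for gene number, and green squares leave out cells with 2 leukocyte or B lymphocyte markers; the high endothelial markers stay below -1 in all 3, while the leukocyte markers lie at -1.07 with all cells and at -0.21 without those cells.

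Of the machinery that stores and releases P-selectin, no detected cargo gene differed by 1 or more in the split at an FPKM of 1, while 3 of 18 formation and release genes were higher. These counts changed with the setting. Vwf, the protein around which Weibel-Palade bodies form, lay between 0 and 233 FPKM in the Selp-positive cells, with a median of 7, and between 0 and 322 FPKM in the Selp-negative cells, with a median of 1.82. It reached an FPKM of 1 in 31 of 46 Selp-positive cells (67.4%, interval 52% to 80.5%) and in 18 of 33 Selp-negative cells (54.5%, interval 36.4% to 71.9%), and its difference was 0.59. Of the 11 detected cargo genes 0 were higher and 0 lower by 1 or more, and their median lay 0.23 above that of all genes. Igfbp7 (0.65), the plasminogen activator Plat (0.66), Angpt2 and the endothelin gene Edn1 (0.40) lay above 0, and Cd63, the tetraspanin partner of P-selectin in the granule, at -0.82. Of 18 genes of granule formation and release 3 were higher and 0 lower, against 5.27% of all 9281 genes higher. Their median lay 0.23 above that of all genes, and 0.39 above it without the cells with lymphocyte markers. The 3 were the small GTPase gene Rap1a (1.56), Ralgds, an activator of Ral (1.33), and the adaptor subunit Ap1m1 (1.06). The GTPase Rab27a was at 0.39, Rala at -0.04 and the fusion protein Vamp3 at 0.29. With the term for gene number, 1 of the 18 was higher, with a median 0.25 above that of all genes, and 1 cargo gene was lower. For Selp at 10 or more against below 10, 1 of the 18 was higher, with a median 0.34 above. In that split 1 cargo gene was higher and 1 lower.

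Receptors for signals that release the granules or induce Selp had 2 of 14 members higher and 0 lower, Kdr and the thrombin receptor F2r (1.15), with a median 0.33 above that of all genes. In human endothelial cells, oncostatin M and interleukin 4 are among the inducers of the gene. Their receptor genes Osmr and Il4ra were at 0.61 and 0.51, Il6st at 0.76, Il13ra1 at -0.06 and Stat6 at -0.41. Of the 14, 5 were higher without the cells with lymphocyte markers, where 1281 of 9613 genes were. With all cells, 5.27% of 9281 genes were higher. With the term for gene number 1 of the 14 was higher, with a median 0.22 above that of all genes. The histamine receptor genes Hrh1 and Hrh2 did not pass the filter on low values.

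Other adhesion molecules of lymphocyte entry had 1 of 14 higher and 0 lower. Their median lay 0.35 above that of all 9281 genes, of which 5.27% were higher. Sele, the inducible E-selectin, encoded close to Selp, reached an FPKM of 1 in 16 of 46 Selp-positive cells (34.8%, interval 21.4% to 50.2%) and in 4 of 33 Selp-negative cells (12.1%, interval 3.4% to 28.2%). Its level went up to 363 FPKM in Selp-positive and 11.4 FPKM in Selp-negative cells, a difference of 1.35. The integrin ligand Icam1 had medians of 108 FPKM in Selp-positive and 48.1 FPKM in Selp-negative cells and a difference of 0.71, Vcam1 was at 0.11, and the junction genes Jam2, Jam3 and Cdh5 were at 0.86, 0.76 and 0.32. Of the 14, 4 were higher without the cells with lymphocyte markers, where 1281 of 9613 genes were. Pecam1 was even, at -0.09. The venous genes had 4 of 15 higher, Tek, Ephb4 (1.34), Aplnr and Emcn, and 0 lower, with a median 0.26 above that of all genes, and 3 higher without the 3 cells with the capillary profile. The venous factor Nr2f2 was at 0.19 and the venular chemokine receptor Ackr1 at 0.88.

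The endothelial transcription factors had 2 of 20 higher, Sox7 (1.22) and Mef2a (1.11), and 0 lower. Their median lay 0.29 above that of all 9281 genes, of which 5.27% were higher. Of the 20, 6 were higher without the cells with lymphocyte markers, where 1281 of 9613 genes were. With the term for gene number 1 was higher, with a median 0.13 above that of all genes. For Selp at 10 or more against below 10, 0 were higher, with a median -0.02 from that of all genes. Without the 3 cells with the capillary profile the median was 0.18 above. Gata2, Erg and Ets1 were at 0.26, 0.73 and 0.67. In the lymphotoxin receptor and NF-kB list, 2 of 21 were higher, the receptor Ltbr (1.31) and the inhibitor Tnfaip3 (1.08), and 1 was lower, the kinase gene Chuk (-1.06). The list's median lay -0.13 from that of all genes. Without the cells with lymphocyte markers, 4 were higher and 0 lower, with a median 0.09 from that of all genes. Nfkb2 (-0.56) and Relb (-0.20), the subunits of the lymphotoxin-driven arm, were at values below 0.

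Interferon response genes had 6 of 24 higher and 0 lower, against 5.27% of all 9281 genes higher. Their median lay 0.48 above that of all genes. The 6 were Irgm2 (1.69), Irf1 (1.51), Bst2 (1.36), Irgm1 (1.34), Igtp (1.23) and Irf7 (1.02), among them 3 immunity-related GTPases of the gamma interferon response. Irgm2 reached an FPKM of 1 in 27 of 46 Selp-positive and 10 of 33 Selp-negative cells. Isg15 (-0.22) and Ifit3 (0.02) did not share this. Without the 3 cells with the capillary profile the list's median was 0.20 above that of all genes, with 5 members higher. Without the cells with lymphocyte markers, 11 were higher, where 1281 of 9613 genes were, and the median was 0.57 above that of all genes. With the term for gene number 3 were higher and the median was 0.37 above, in cells matched on gene number it was 0.27 above, and for Selp at 10 or more against below 10 0.22 above.

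Genes that cell dissociation and heat shock induce stood higher on the Selp-positive side too: 5 of 14 members were higher and 0 lower, against 5.27% of all 9281 genes higher. Their median lay 0.48 above that of all genes. Without the cells with lymphocyte markers it lay 1.14 above, with 10 of 14 higher, where 1281 of 9613 genes were. For Selp at 10 or more against below 10, 0 of the 14 were higher, and without the 3 cells with the capillary profile 4. The 5 were Ier3 (1.67), Dusp1 (1.48), Egr1 (1.29), Fosb (1.24) and Dnajb1 (1.04). Summed over the 14 markers, levels were between 49.3 and 7929 FPKM with a median of 2599 in Selp-positive cells and between 30.6 and 7243 FPKM with a median of 1661 in Selp-negative cells. Klf2, Klf4, Tnfaip3, Socs3 (1.17), Fosl2 and Apold1 are also known as early response genes. The part of the dissociation in their differences was not tested.

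In the 3 genes furthest higher, cells with little Selp had mean levels close to those of cells with much Selp. Mean Ly6c1 was 4.43 in cells with Selp below 1 FPKM, 7.44 from 1 to 10 FPKM and 7.56 at 10 or more. Spry4 followed the same course with 0.26, 3.06 and 2.79, and Samhd1 with 1.73, 4.19 and 4.24. For Ly6c1, the mean from 1 to 10 FPKM is raised by the 3 cells with the capillary profile. Those cells had Ly6c1 at 2864, 4148 and 5906 FPKM. Glycam1 was already lower from 1 to 10 FPKM of Selp, with 15.94, 14.65 and 14.50. Other genes differed between the 2 Selp-positive ranges: Thbd had 1.43, 4.35 and 2.11, while the complement gene C1ra had 4.14, 3.46 and 5.95 and Tek 1.99, 2.73 and 4.19. The capillary list had mean levels of 3.15, 4.74 and 4.13 in the 3 ranges, and the range from 1 to 10 holds the 3 cells with the capillary profile. These genes were picked after their values were seen. With 14 cells from 1 to 10 FPKM, single cells weigh heavily there.

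The same question was put to the other HEC, whose cells are not shared with the homeostatic ones. In the dedifferentiated HEC, 33 cells were at a Selp FPKM of 1 or more and 11 below, and 1154 of 7776 genes (14.8%) were higher and 519 (6.67%) lower by 1 or more, with a median of 0.27. In the inflamed HEC no cell was below 1, so 53 cells at 10 or more were set against 11 below 10, a threshold chosen after the values were seen; 859 of 9345 genes (9.19%) were higher and 619 (6.62%) lower, with a median of 0.13. Gene number stood higher with Selp in both, at medians of 3160 genes with more and 2554 genes with less Selp in the dedifferentiated HEC, and of 4005 and 3568 genes in the inflamed HEC. The side with less Selp held 11 cells in both, and a larger percentage of all genes passed a difference of 1 than in homeostatic HEC. Split at 10 instead, the dedifferentiated HEC gave 22 cells a side, with 1090 of 7903 genes (13.8%) higher and 256 (3.24%) lower and a median of 0.24.

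Of the 12 genes named as higher in homeostatic HEC, 9 were also above 0 in dedifferentiated HEC (median 0.68, against 0.27 for all genes) and 8 in inflamed HEC (median 0.10, against 0.13 for all genes). With the dedifferentiated HEC split at 10, all 12 were above 0 (median 0.72). Ly6c1 was higher by 1.29 in dedifferentiated HEC but stood at 0.01 in inflamed HEC, and Spry4 was at -0.27 in dedifferentiated and 1.57 in inflamed HEC. Of the 12 genes named as lower, 5 were below 0 in dedifferentiated HEC (median 0.02, against 0.27 for all genes). In inflamed HEC 8 were below 0 (median -0.29, against 0.13 for all genes), while Ndfip1 (2.32) and Sdc4 (1.13) were higher by 1 or more. With the dedifferentiated HEC split at 10, 5 were below 0 (median 0.22, against 0.24 for all genes). Ly6i was at -2.12 in dedifferentiated and -1.97 in inflamed HEC, and Chrac1 at -3.25 and -3.22. With the dedifferentiated HEC split at 10, Ly6i was at -1.09 and Chrac1 at -0.86. Sele was higher with Selp by 1.51 in dedifferentiated and 1.52 in inflamed HEC, but stood at -0.37 in dedifferentiated HEC split at 10. Ehd4 was higher by 1.73 and 2.31, and by 0.69 in the split at 10.

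The high endothelial markers lay -0.90 from the median of all genes in dedifferentiated HEC, with Chst4 at -2.09 and Glycam1 at -0.98, and 0.19 from it in inflamed HEC, with Chst4 at 1.79 and Glycam1 at 0.25. The capillary list lay 0.23 from the median of all genes in dedifferentiated and -1.42 from it in inflamed HEC, where 7 of 13 members were lower in the cells with more Selp, among them Rgcc (-2.80), Gpihbp1 (-2.79) and Fabp5 (-2.18). Interferon response genes lay 0.48 above in dedifferentiated and -0.05 in inflamed HEC. Caveolar genes lay 0.22 and 0.34 above, and basement membrane genes 0.31 and 0.29 above. With the dedifferentiated HEC split at 10, the basement membrane median was -0.06 from that of all genes, caveolar genes 0.45 and interferon response genes 0.80 above it, and the high endothelial markers -1.33 from it. Whether the groups differ in these medians was not tested, since each side is 1 sample.

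**Figure D5:**
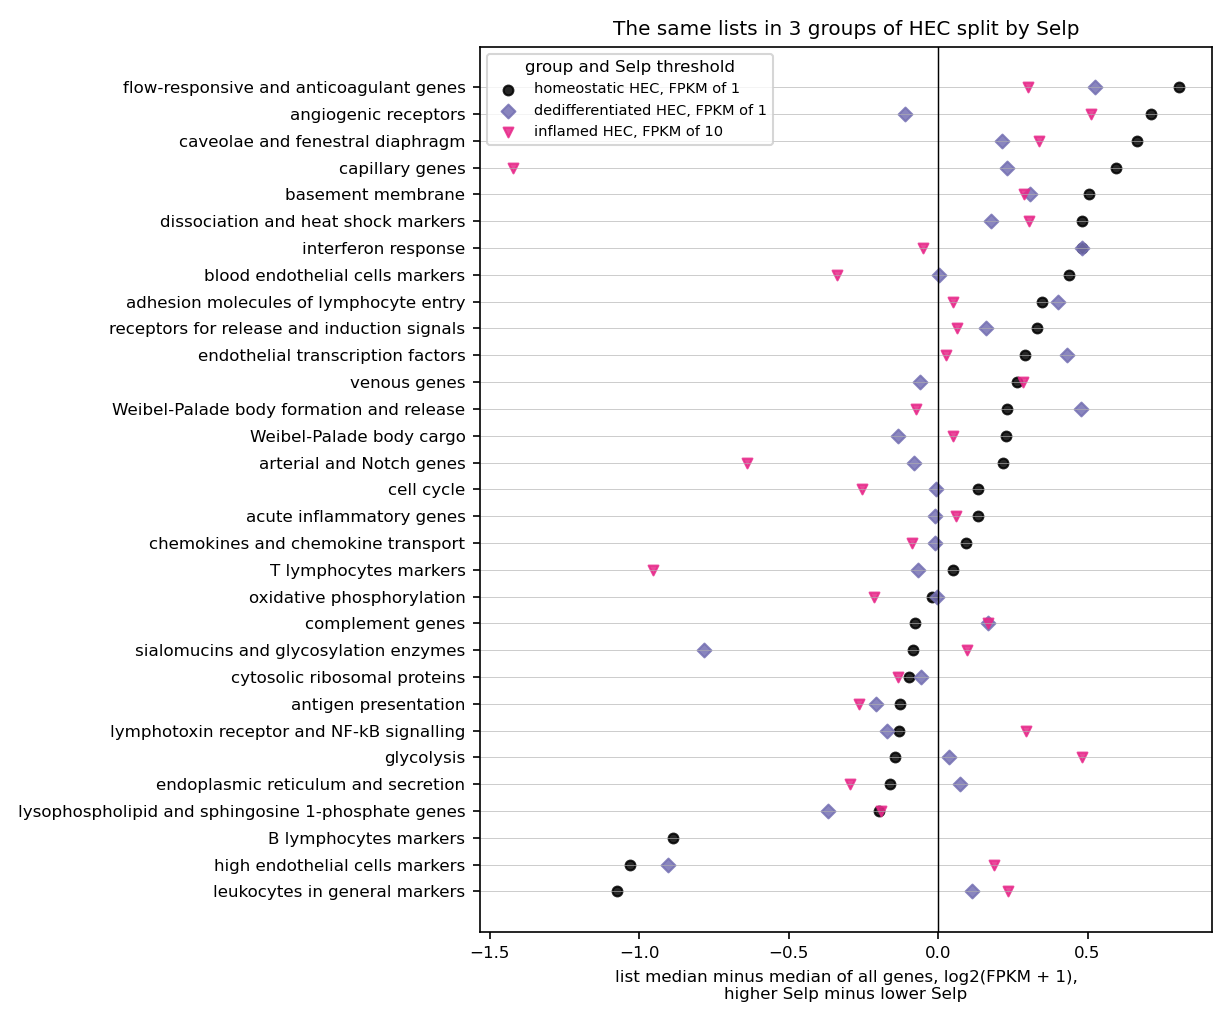
The median of each list minus the median of all genes, higher Selp minus lower Selp, on the log2(FPKM + 1) scale, in dedifferentiated HEC split at an FPKM of 1 (diamonds), inflamed HEC split at 10 (triangles) and homeostatic HEC split at 1 (circles). Caveolar genes lie right of 0 in all 3 groups and basement membrane genes do so at these thresholds (not in dedifferentiated HEC split at 10), whereas capillary genes lie at -1.42 in inflamed HEC and at 0.59 in homeostatic HEC.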

How the data were processed

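The deposited table holds FPKM values computed by the authors, 24049 gene symbols by 220 cells, rounded to 2 decimals. The build mm10 and the tools RSEM 1.2.18 and CASAVA 1.8 are named in the submitters' processing notes; their roles, the annotation and any cell filter were not given in the sources used here. Groups were taken from titles and characteristics per the labels. No count model was applied to FPKM, and since each sample is 1 cell with no animal named, only descriptions were made: means, SDs and differences of log2(FPKM + 1), which understate changes of low genes, and shares of cells with exact Clopper-Pearson 95% intervals, which cover counting error over cells only. Depth was approximated for 74 of 79 cells from low FPKM steps of 2975 single-transcript genes. The procedure was tried only on simulated cells that had the transcript lengths it assumes. Errors from other lengths in the deposited values were not tested.

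Selp was left out of gene number and results. Genes reaching an FPKM of 1 in over 10% of the cells of a side were compared. Named genes are the 12 with the largest difference in each direction that at least 50% of a side held at an FPKM of 1, without predicted or clone names, ribosomal protein, haemoglobin, small RNA and mitochondrially encoded genes; members of lists may be named too. The members, the 25 gene lists and 12 marker lists (531 symbols, 9 of them not matched) were chosen with earlier results of these data known. Alternatives covered the pseudocount, filters, the Selp threshold, gene number (linear term, or matching within 300 genes), rescaling (by median ratios over genes in 80% of cells, or without Glycam1 and Ccl21a), arithmetic means, and leaving out cells with markers of other types. Positions are from GENCODE M21 (GRCm38). Python 3.11.15, numpy 2.4.6, pandas 2.3.3, scipy 1.17.1 and matplotlib 3.10.9 were used.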

Additional observations from a re-analysis of the deposited data

How the results depend on the processing

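Each comparison was recomputed with 1 choice changed at a time. Counts of genes depended strongly on the settings: higher and lower by 1 or more, they were 489 and 115 in the main values, 1446 and 339 with a pseudocount of 0.1, 41 and 13 with a pseudocount of 10, and 853 and 343 for any Selp against none. They were 256 and 319 with the linear term for gene number, 337 and 479 in matched cells, and 1711 and 1191 as ratios of arithmetic means. They were 521 and 203 for Selp at 10 or more against below 1, 316 and 184 for 10 or more against below 10, and 1281 and 168 without the 23 cells with lymphocyte markers. With the filter at 50% of cells, 66 were lower. In dedifferentiated HEC split at 10, 256 were lower, against 519 split at 1. Where counts moved, the cause was not tested, except that the pseudocount and the filter act by construction on low genes. The settings for gene number act by construction on the median over all genes.

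The median difference over all genes lay between 0 and 0.31 under the alternatives, against 0.17, and the Selp-positive cells held more genes in all 6 alternatives of that comparison (200.0 to 575, against 506). Named genes kept their sign in 309 recalculations and lost it in 3: Cnp, Ndfip1 and Sdc4 turned to 0.036, 0.056 and 0.061 for any Selp against none. Since the named genes were chosen in these same cells for their size, a kept sign was likely in advance. Of 403 recalculated list medians, 44 had the opposite sign, spread over 12 of the 31 lists, and 142 kept the sign but differed in size by over 1.5 times. Of the 20 lists with a median of 0.3 or more either way, 3 changed sign: cell cycle (-0.03 for Selp at 10 or more against below 10), B lymphocytes and leukocytes. The leukocyte median turned to 0.22 for any Selp against none and to 0.10 without the cells with lymphocyte markers, where the B lymphocyte median turned to 0.0115, and both moved to -3.61 and -3.08 as ratios of arithmetic means. The settings that split at 10, drop cells with lymphocyte markers or drop the 3 capillary cells were chosen after seeing the data. No paired analysis was possible because the cell numbers in the titles only name cells within a group. With a median depth of 1933067 fragments in Selp-positive and 1790513 in Selp-negative cells, a gene listed at 0 may still have been expressed.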

Other observations

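Lists of general cell work had medians close to that of all genes between Selp-positive and Selp-negative homeostatic HEC, although single members differed by 1 or more. Of all 9281 genes, 5.27% were higher and 1.24% lower. Of 22 cytosolic ribosomal protein genes, 0 were higher and 0 lower by 1 or more, with a median -0.10 from that of all genes. Oxidative phosphorylation had 3 of 21 higher, Ndufv1 (1.51), Sdhd (1.48) and Atp5o (1.11), and a median -0.02 from that of all genes, with 2 higher without the 3 cells with the capillary profile. Ndufb6, which is not in that list, was at -2.21. Glycolysis had 1 of 15 higher, Pgam1 (1.09), at -0.14, and 3 higher at 0.06 without the cells with lymphocyte markers. The endoplasmic reticulum list had 1 of 26 higher, the translocon-associated Ssr2 (2.02), and 2 lower, the stress-induced Herpud1 (-1.23) and the translocon channel gene Sec61a1 (-1.01), at -0.16. Without the cells with lymphocyte markers it had 3 higher and 1 lower, where 1281 of 9613 genes were higher and 168 lower. The cell cycle list had 0 of 6 higher and 0 lower, and its proliferation markers Mki67 and Top2a did not pass the filter on low values.

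Antigen presentation genes had 0 of 18 higher and 0 lower, with a median -0.13 from that of all genes. Without the cells with lymphocyte markers it was 0.40 from it, with 5 of 18 higher, where 1281 of 9613 genes were. H2-T23 was at 0.75 and the class II gene H2-Eb1 at -0.84. Lysophospholipid and sphingosine 1-phosphate genes had 0 of 10 in either direction, at -0.20, with the receptor S1pr1 at -0.32. Chemokine genes had 1 of 13 higher, Cxcl9 (1.01), complement genes 1 of 6, C1ra (1.06), acute inflammatory genes 2 of 11, Ier3 and Socs3, and arterial and Notch genes 2 of 8, Nrp1 and Notch1 (1.01), with 0 lower in each. The medians of these lists lay 0.09, -0.08, 0.13 and 0.22 from that of all 9281 genes, of which 5.27% were higher. Without the 3 cells with the capillary profile, 0 of the 8 arterial and Notch genes and 0 of the 13 chemokine genes were higher. The blood endothelial markers had 4 of 12 higher, Tek, Kdr, Emcn and Ptprb (1.07), and 0 lower, with a median 0.44 above that of all genes. The count was 3 without the 3 cells with the capillary profile, 2 with 1 lower under the term for gene number, and 1 for Selp at 10 or more against below 10. Of the B lymphocyte markers, 1 of 4 was lower, Cd79a (-1.09), and their median lay -0.89 from that of all genes, or -0.29 without the cells with lymphocyte markers. The lists of T lymphocytes, lymphatic endothelium, pericytes, fibroblastic reticular cells, myeloid cells and platelets had between 1 and 3 detected members and none past 1 in either direction, and no erythroid marker passed the filter on low values.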
